A study of Mus musculus with 6 samples.

Results

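The chemokine ligands and receptors of the mouse were examined in the diabetic myocardium. The members are the protein-coding genes of GENCODE release M21 (build GRCm38) whose symbol is Ccl, Cxcl, Ccr or Cxcr followed by a number, together with Cx3cl1, Cx3cr1, Xcl1, Xcr1 and the atypical receptors Ackr1 to Ackr4. There were 60 of them among the 55401 genes in the files: 37 ligands, 19 signalling receptors and 4 atypical receptors. A further 3 matching symbols are annotated as pseudogenes and were left out.

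RNA sequencing was done on myocardium of male wild-type mice. The DM group (DM1, DM2 and DM3) had been injected with STZ (streptozotocin), a toxin of the pancreatic beta cells that the series used to make mice diabetic. The Ctrl group (Ctrl1, Ctrl2 and Ctrl3) had been injected with PBS. All 6 libraries carry a time label of 8 weeks, with no event from which it runs given in the sources used here. Whether each library is a separate animal is not stated in the labels, and the p-values therefore speak only for the variation among these libraries, part of which may be technical.

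Levels are FPKM (fragment counts divided by transcript length and by library size), so they can be compared between genes. They summed to 531384 to 589719 in the 5 complete libraries. The number of fragments is not given in the sources used here, so the depth behind each value is unknown. The file of Ctrl3 lists 7711 genes (13.9%), and over those genes its FPKM summed to 91265, against 91270 to 95290 in the other 5 libraries. The test therefore used DM1 to DM3 against Ctrl1 and Ctrl2, and Ctrl3 is given beside them where its file lists a gene. The 8 cardiomyocyte markers, none at 0, summed to 8987 to 10400 FPKM in DM and to 11927 and 12600 FPKM in Ctrl1 and Ctrl2. The atrial marker Myl7 was at 357, 73.7 and 0.28 FPKM in the DM libraries and at 262, 37.9 and 0.21 FPKM in the Ctrl libraries, so atrial tissue markers varied within both groups. Mitochondrial genes took 42.0% to 45.5% of the FPKM total in DM and 47.1% to 47.3% in the complete Ctrl libraries. Apart from these, 9 nuclear pseudogene copies of mitochondrial genes took 19.0% to 20.7% in DM and 19.8% and 19.9% in Ctrl1 and Ctrl2.

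Chemokines are small secreted proteins that guide leukocytes and other cells along concentration gradients. They are grouped by the spacing of their first cysteines into CC (Ccl), CXC (Cxcl), C (Xcl) and CX3C (Cx3cl) forms, and they signal through G protein-coupled receptors named for the form they bind. Atypical receptors bind chemokines and take them up without the usual G protein signalling. In the heart, fibroblasts, endothelial cells and resident macrophages are known sources of ligands, while most receptors sit on immune cells, which are a minor part of the tissue.

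Of the 60 genes, 25 were detected, meaning that 2 or more of the 5 complete libraries reached 0.5 FPKM. These were 19 of the 37 ligands, 4 of the 19 signalling receptors and 2 of the 4 atypical receptors. Levels were low: 3 detected genes averaged 10 FPKM or more over the complete libraries, 14 averaged between 1 and 10 FPKM, and 8 averaged less than 1 FPKM. Just inside the detection threshold, Cxcr2 reached 0.72 and 0.54 FPKM in 2 libraries and Ccl5 0.95 and 0.54 FPKM. Just outside it, the neutrophil chemokine Cxcl5 had 0.97 and 0.49 FPKM in its 2 highest libraries and the atypical receptor Ackr2 had 0.55 and 0.44 FPKM. Of the 35 genes that were not detected, 13 are listed at 0 in every complete library, namely the receptors Ccr3, Ccr4, Ccr6, Ccr7, Ccr8 and Ccr1l1 and the ligands Ccl1, Ccl20, Ccl26, Ccl27b, Cxcl3, Cxcl15 and Cxcl17. The other 22 had values between 0 and the threshold, apart from the single libraries of Cxcl5 and Ackr2 named above. A gene listed at 0 in these files was not necessarily silent.

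**Figure D1:**
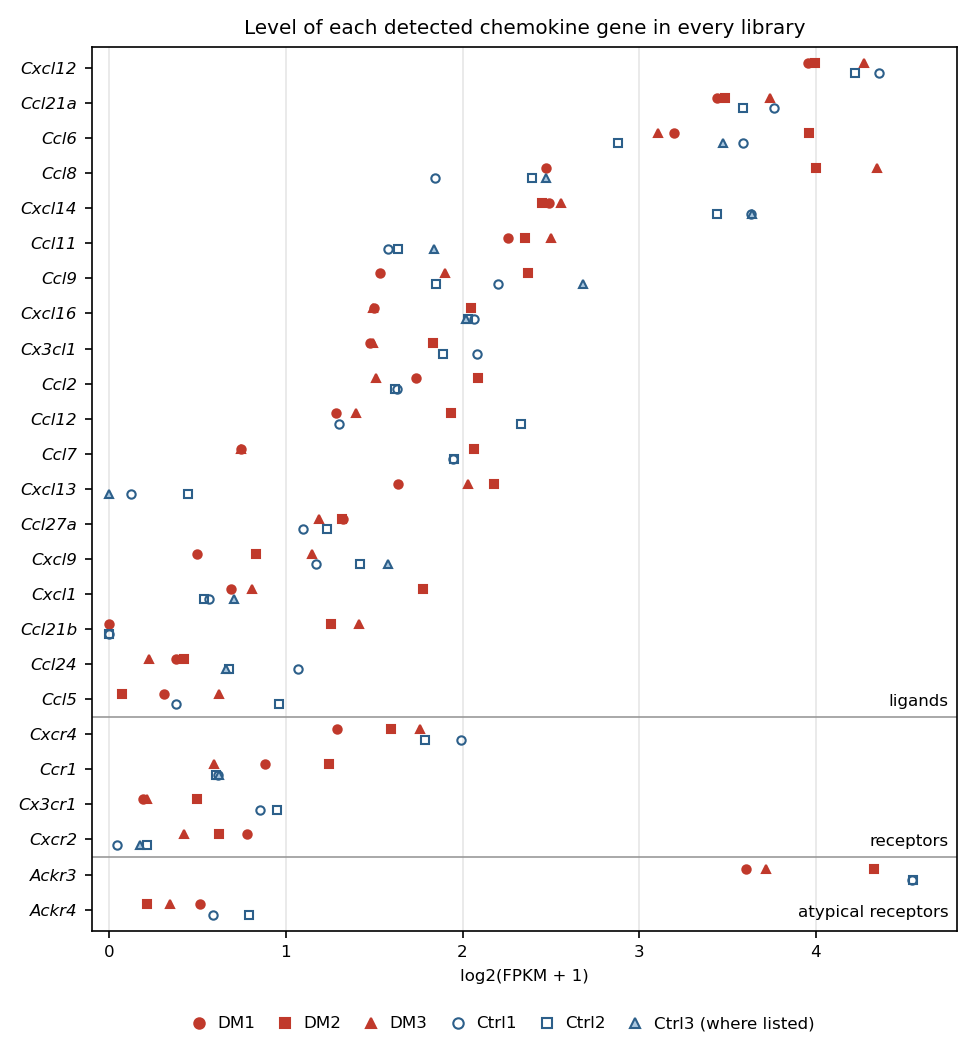
Level of each of the 25 detected chemokine genes in every library, as log2(FPKM + 1) on the horizontal axis. Red symbols are DM libraries and blue symbols Ctrl libraries, with Ctrl3 shown where its file lists the gene. Cxcl13 lies at 2.10 to 3.53 FPKM in DM and at 0.09 and 0.36 FPKM in Ctrl1 and Ctrl2, while Cxcl14 lies lower in DM and most other genes differ by less.

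In DM hearts the B cell chemoattractant Cxcl13 and the eosinophil chemoattractant Ccl11 were higher, and Cxcl14 was lower, than in Ctrl hearts. Those 3 of the 25 detected genes (12%) passed an adjusted p of 0.05 in limma, where 4.54% of all 13702 tested genes did. Cxcl13 had met the detection threshold only through its DM values, so the share of 12% rests partly on that selection. Ccl11 and Cxcl14 were the only called genes among the 18 that met the threshold through both groups. By direction, 2 members rose and 1 fell, where 2.79% of all tested genes rose and 1.75% fell. Among all called genes, those higher in DM made up 61.4% on the deposited scale, 46.0% when libraries were centred on their medians and 72.9% on the TPM scale. The 3 chemokine calls were made under each of these scalings. The other 22 detected genes did not pass. An unadjusted p below 0.05 was reached by 8 of the 25 (32%) and by 25% of all tested genes. Of these 8, Cxcl13, Cxcr2, Ccl24 and Cx3cr1 had met the detection threshold only through the group where they were high. The share of 32% therefore rests partly on that selection. The median log2 fold change of the 25 was -0.22, beside 0.06 over all tested genes. In 13 of the 25 (52%) the DM values did not overlap those of Ctrl1 and Ctrl2, and the same held for 45.6% of all tested genes. Of these 13, 6 had met the detection threshold only through the group where they were high. Among the 18 genes that met it through both groups the values did not overlap in 7 (38.9%). Of the 13, 5 were higher in DM (27.6% of all tested genes) and 8 were lower (18% of all tested genes).

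**Figure D2:**
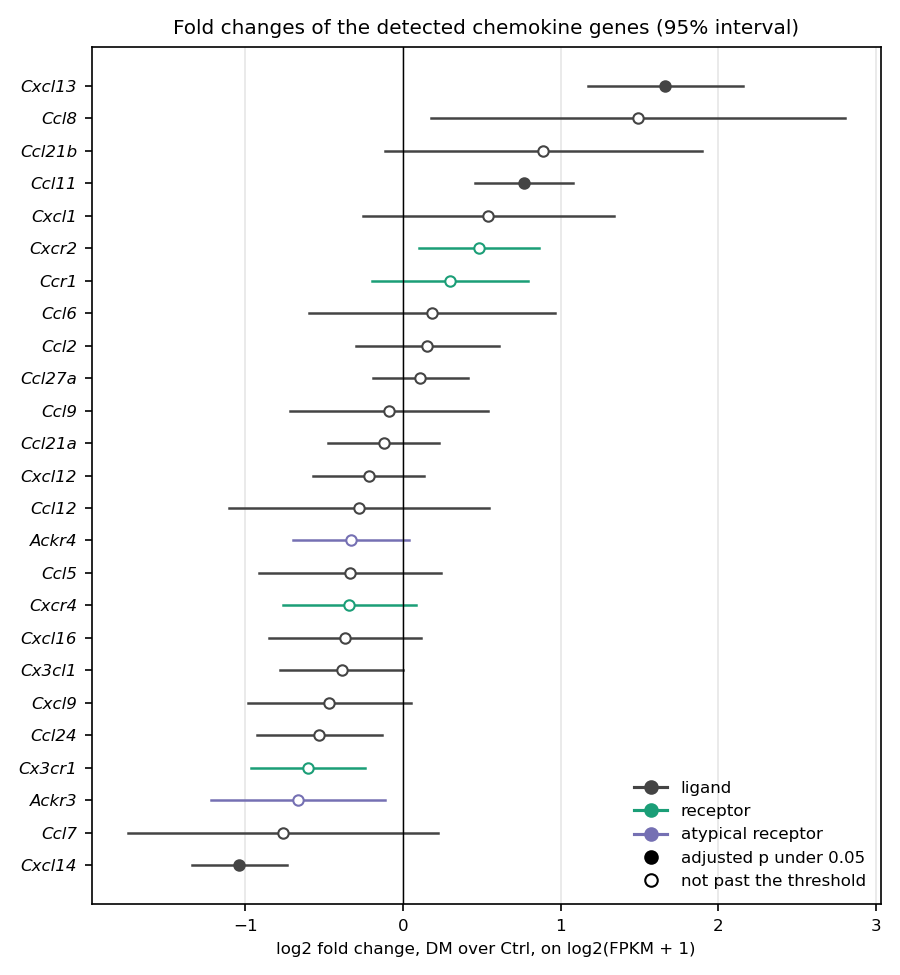
Log2 fold change of DM over Ctrl on the log2(FPKM + 1) scale for the 25 detected genes, with 95% intervals from limma. Filled points (Cxcl13, Ccl11 and Cxcl14) passed an adjusted p of 0.05, and the interval of Ccl8 runs from 0.18 to 2.80.

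The ligand with the largest rise was Cxcl13, which draws B cells through the receptor Cxcr5. Cxcl13 (ENSMUSG00000023078, chromosome 5, 95956951 to 95961068, GRCm38) was at 2.10, 3.53 and 3.09 FPKM in DM1, DM2 and DM3, against 0.09 and 0.36 FPKM in Ctrl1 and Ctrl2. It is listed at 0.00 FPKM in Ctrl3. Every DM library lay above every Ctrl library. The means were 2.91 ± 0.732 FPKM in DM (SD, n = 3) and 0.225 ± 0.191 FPKM in Ctrl (SD, n = 2). DM exceeded Ctrl by 1.66 ± 0.20 on the log2 scale (SE, limma adjusted p = 0.0171). With a pseudocount of 0.1 in place of 1 the log2 fold change was 3.31 (limma adjusted p = 0.0209), since the Ctrl level is low. Cxcl13 met the detection threshold only through its DM values. Its receptor Cxcr5 reached at most 0.04 FPKM in any complete library. Of 8 B cell markers only Ebf1, which other cells express too, was tested, and the 8 summed to 0.67 to 1.56 FPKM in DM and to 1.54 and 1.69 FPKM in Ctrl.

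Cxcl14, a CXC ligand made by epithelial and stromal cells, was lower in DM and the only detected chemokine gene to pass the test in that direction with all 5 complete libraries. Cxcl14 (ENSMUSG00000021508, chromosome 13, 56288643 to 56296551, GRCm38) was at 4.61, 4.46 and 4.89 FPKM in the DM libraries, against 11.4, 9.85 and 11.4 FPKM in Ctrl1, Ctrl2 and Ctrl3. The DM libraries lay close together and below all 3 Ctrl libraries. The mean was 4.65 ± 0.218 FPKM in DM (SD, n = 3) and 10.6 ± 1.10 FPKM in Ctrl1 and Ctrl2 (SD, n = 2). DM and Ctrl differed by -1.04 ± 0.13 on the log2 scale (SE, limma adjusted p = 0.0169). With Ctrl3 in the fit it was -1.07 (limma adjusted p = 0.00414). It also passed with the filter raised to 5 FPKM.

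Ccl11 (eotaxin), which draws eosinophils through Ccr3, rose. Ccl11 (ENSMUSG00000020676, chromosome 11, 82057823 to 82062955, GRCm38) was at 3.79, 4.12 and 4.66 FPKM in the DM libraries, against 1.99, 2.10 and 2.57 FPKM in Ctrl1, Ctrl2 and Ctrl3. The lowest DM library lay above the highest Ctrl library. The mean was 4.19 ± 0.439 FPKM in DM (SD, n = 3) and 2.04 ± 0.0778 FPKM in Ctrl1 and Ctrl2 (SD, n = 2). On the log2 scale the difference was 0.77 ± 0.13 (SE, limma adjusted p = 0.0338). Its receptor Ccr3 is listed at 0 in every complete library. Another ligand of Ccr3, Ccl24 (eotaxin-2), had the opposite sign and did not pass. Ccl24 was at 0.30, 0.34 and 0.17 FPKM in DM, against 1.10, 0.60 and 0.58 FPKM in Ctrl1, Ctrl2 and Ctrl3 (log2 fold change -0.53 ± 0.16, SE, limma adjusted p = 0.116), and it was detected only through its Ctrl values.

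The calls of Cxcl13, Cxcl14 and Ccl11 depended on both complete Ctrl libraries and on the filter on low values, without which the adjusted p-values in limma were 0.0709, 0.0528 and 0.0931. Without Ctrl1 their adjusted p-values in limma were 0.122, 0.16 and 0.247, and without Ctrl2 they were 0.0811, 0.102 and 0.2, with the directions kept. Ccl11 also missed the threshold without DM1, DM2 or DM3 (limma adjusted p = 0.0586, 0.0707 and 0.0627), and Cxcl13 missed it without DM3 (0.0522).

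Fibroblasts are a known source of Cxcl12, Cxcl14 and Ccl11 in many tissues, and fibroblast markers differed between the same libraries. Of 10 fibroblast markers tested 4 fell (the collagen genes Col1a1, Col1a2 and Col3a1, and Pi16) and 0 rose, and the median over the 10 was -0.44 on the log2 scale. Over all tested genes 1.75% fell, 2.79% rose and the median was 0.06. Of the 10, 4 had a positive sign, among them Pdgfra, Dcn and Tcf21, which lay higher in every DM library than in Ctrl1 and Ctrl2 and did not pass (log2 fold changes 0.37, 0.38 and 0.25, limma adjusted p = 0.165, 0.121 and 0.323). Summed over the 10, the level was 437 to 490 FPKM in DM and 465 and 505 FPKM in Ctrl, and none of the 10 was at 0. Most of this sum was Gsn, at 358.7, 307.1 and 305.4 FPKM in DM, against 325.5 and 311.1 FPKM in Ctrl1 and Ctrl2. The sum therefore says little about the other markers of the list. The part of these markers in the chemokine values was not tested. In bulk tissue, fewer cells of a type and less RNA per cell cannot be told apart.

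The monocyte chemoattractant genes lie beside Ccl11. The 5 genes Ccl2, Ccl7, Ccl11, Ccl12 and Ccl8 sit in that order, all on the plus strand, within 81.2 kb of chromosome 11 (82035571 to 82116799, GRCm38). Ccl11 rose and the other 4 did not pass. Ccl8, which in the mouse is a ligand of Ccr8 (listed at 0), had a large but variable difference. Ccl8 (ENSMUSG00000009185, 82115185 to 82116799) was at 4.55, 14.99 and 19.37 FPKM in DM1, DM2 and DM3, against 2.59, 4.25 and 4.55 FPKM in Ctrl1, Ctrl2 and Ctrl3. DM2 and DM3 were high, while DM1 equalled Ctrl3, so the groups touch once Ctrl3 is counted. The log2 fold change was 1.49 ± 0.54 (SE, limma adjusted p = 0.159), and without DM1 it was 2.06 (limma adjusted p = 0.0361).

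The Ccr2 ligands Ccl2, Ccl7 and Ccl12, which draw inflammatory monocytes, overlapped between the groups. Ccl2 was at 2.33, 3.25 and 1.85 FPKM in DM, against 2.09 and 2.07 FPKM in Ctrl1 and Ctrl2. The 95% interval of its log2 fold change ran from -0.30 to 0.61. Ccl7 was at 0.68, 3.19 and 0.68 FPKM in DM, against 2.86 and 2.87 FPKM in Ctrl. Here DM2 lay above both Ctrl libraries and the other DM libraries far below them. The log2 fold change of Ccl7 was -0.76 ± 0.41 (SE, limma adjusted p = 0.299), and without DM2 it was -1.20 (limma adjusted p = 0.03). Ccl12 was at 1.43, 2.83 and 1.63 FPKM in DM, against 1.46 and 4.04 FPKM in Ctrl, and its sign turned without Ctrl2. Ccr2 itself lay just under the detection threshold, at 0.35, 0.49 and 0.49 FPKM in DM and 0.22 and 0.25 FPKM in Ctrl.

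**Figure D3:**
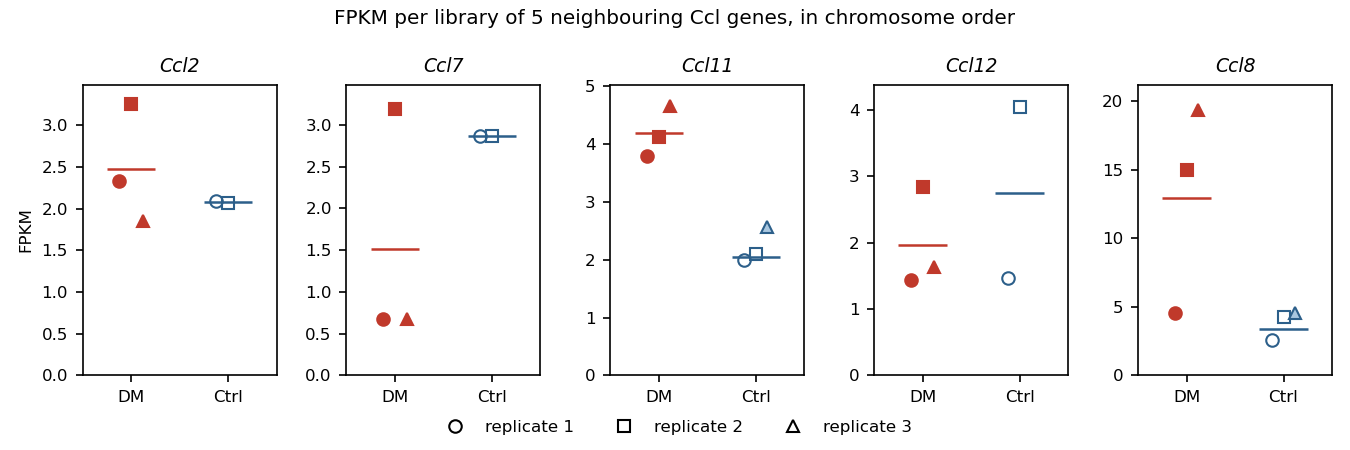
FPKM per library of the 5 neighbouring Ccl genes of chromosome 11, in chromosome order, each panel with its own linear axis from 0. DM libraries are red and Ctrl libraries blue (Ctrl3 pale where listed), and lines mark the means of DM1 to DM3 and of Ctrl1 and Ctrl2. Ccl11 separates the groups, while DM2 stands alone in Ccl7 and DM1 lies at the Ctrl level in Ccl8.

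Further along chromosome 11, the rodent macrophage chemokines Ccl9 and Ccl6 were expressed in all libraries. Ccl6 was at 8.17, 14.6 and 7.60 FPKM in DM, against 11.04, 6.35 and 10.13 FPKM in Ctrl1, Ctrl2 and Ctrl3. Ccl9 was at 1.89, 4.17 and 2.74 FPKM in DM, against 3.59, 2.61 and 5.42 FPKM in Ctrl. Neither passed, and the sign of each turned when single libraries were left out (Ccl6 without DM2 or Ctrl2, Ccl9 without DM1 or Ctrl1). DM2 was the highest DM library in 13 of the 25 detected genes (52%), where it was the highest in 39.0% of all tested genes. Of 15 macrophage markers, all of them tested, 0 passed in limma and 4 had an unadjusted p below 0.05 (25% of all tested genes). Of the 4, Adgre1, Csf1r and Folr2 had a negative sign and Mertk had a positive sign. Signs were positive in 5 of the 15 and negative in 10. The summed level of the 15 was 176, 245 and 211 FPKM in DM1, DM2 and DM3, against 251.3 and 220.6 FPKM in Ctrl1 and Ctrl2. None of the 15 was at 0, and the part of macrophage content in these values was not tested.

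The promoters of Cxcl13, Ccl8 and Cxcl14 are shown because these genes had the 3 largest differences of the family on the log2(FPKM + 1) scale. With a pseudocount of 0.1 the log2 fold changes of Ccl21b (2.68), Cxcr2 (1.74), Cx3cr1 (-1.61), Ccl24 (-1.34) and Ccl7 (-1.23) were also larger in size than that of Cxcl14 (-1.17). The sequences are from RefSeq (GRCm38.p6), 250 bases before to 50 after the start, written 5′ to 3′ along the gene. Capitals mark matches to 3 motifs searched on both strands: the kappa B site, the interferon-stimulated response element (ISRE, which is GAAA, then NN, then GAAA again) and the AP-1 site (TGANTCA).
Cxcl13, plus strand, chr5:95956689-95956988: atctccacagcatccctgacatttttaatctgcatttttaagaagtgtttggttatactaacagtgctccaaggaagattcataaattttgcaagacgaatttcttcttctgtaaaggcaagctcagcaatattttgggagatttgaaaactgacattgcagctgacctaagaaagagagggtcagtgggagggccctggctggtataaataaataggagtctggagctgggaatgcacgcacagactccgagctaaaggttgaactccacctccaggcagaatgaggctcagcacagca
Ccl8, plus strand, chr11:82114935-82115234: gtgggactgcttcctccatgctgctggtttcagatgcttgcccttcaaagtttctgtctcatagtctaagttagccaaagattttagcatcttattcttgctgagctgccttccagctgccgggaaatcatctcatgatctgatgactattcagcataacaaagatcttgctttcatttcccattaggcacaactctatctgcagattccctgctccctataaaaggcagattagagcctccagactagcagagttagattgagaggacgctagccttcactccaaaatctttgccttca
Cxcl14, minus strand, chr13:56296502-56296801: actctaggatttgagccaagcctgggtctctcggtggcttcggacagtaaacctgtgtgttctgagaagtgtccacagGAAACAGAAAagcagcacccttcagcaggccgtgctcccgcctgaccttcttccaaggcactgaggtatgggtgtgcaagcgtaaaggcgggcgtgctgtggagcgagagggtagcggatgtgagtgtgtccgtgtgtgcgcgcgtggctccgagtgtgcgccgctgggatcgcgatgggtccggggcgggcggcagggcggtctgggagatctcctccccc
The Cxcl14 window holds 1 ISRE match, at bases 79 to 88, and the Cxcl13 and Ccl8 windows hold none of the 3 motifs. Among the 25 detected genes 19 had a promoter in the table. A kappa B match stood in 4 of them (Ccl27a, Ccl9, Ccr1 and Cxcl1), an ISRE match in 1 (Cxcl14) and an AP-1 match in 3 (Ccl27a, Ccl9 and Cxcl9). Over the promoters of all 27025 genes the shares were 9.55%, 3.99% and 8.97%. A match is a description of the letters and not a binding site.

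Among the CXC ligands, Cxcl12 had the highest mean level. Cxcl12, which holds haematopoietic and endothelial cells in place through Cxcr4, was at 14.52, 14.96 and 18.36 FPKM in DM, against 19.6 and 17.7 FPKM in Ctrl1 and Ctrl2. The groups overlapped, and the 95% interval of the log2 fold change ran from -0.57 to 0.14. The neutrophil chemoattractant Cxcl1 was at 0.61, 2.43 and 0.75 FPKM in DM, against 0.48, 0.45 and 0.63 FPKM in Ctrl1, Ctrl2 and Ctrl3. DM2 stood far above the rest, and DM1 lay below Ctrl3 (log2 fold change 0.54 ± 0.33, SE, limma adjusted p = 0.358). Among the complete libraries, Cxcl1 met the detection threshold only through its DM values. The interferon-inducible ligand Cxcl9, which draws activated T cells, was at 0.41, 0.78 and 1.22 FPKM in DM, against 1.25, 1.67 and 1.99 FPKM in Ctrl1, Ctrl2 and Ctrl3, a change that did not pass (limma adjusted p = 0.234). Cxcl16, a membrane-bound ligand that is also a scavenger receptor, was at 1.83, 3.14 and 1.81 FPKM in DM, against 3.18, 3.09 and 3.06 FPKM in the 3 Ctrl libraries. Of its exon length 18.3% overlaps Zmynd15 on the opposite strand, and the strand setting of the counting is not given. Ccl5, which draws T cells and monocytes, was at 0.24, 0.05 and 0.54 FPKM in DM, against 0.30 and 0.95 FPKM in Ctrl1 and Ctrl2. Ccl27a, a ligand of Ccr10 that shares stretches with gene copies on chromosome 4, was at 1.5, 1.49 and 1.28 FPKM in DM, against 1.14 and 1.35 FPKM in Ctrl. Ccl5 and Ccl27a overlapped between the groups.

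Ccl21a and Ccl21b, ligands that guide dendritic cells and T cells through Ccr7, are nearly identical to each other and to further copies. The Ccl21b transcript of GENCODE is 402 bases long, from a start to a stop codon, and the transcripts of Gm13304, Gm21541 and Gm10591, all on chromosome 4, hold it with 0 differences. Ccl21a holds it with 2 differences, T84A and C194T, counted from the first base of the start codon, with the base of Ccl21a first. Bases 64 to 104 and 174 to 214 of that stretch are shown to make the near identity visible, with the differing base in capitals.
Ccl21a, bases 64 to 104: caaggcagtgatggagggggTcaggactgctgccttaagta
Ccl21b, bases 64 to 104: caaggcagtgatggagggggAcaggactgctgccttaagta
Ccl21a, bases 174 to 214: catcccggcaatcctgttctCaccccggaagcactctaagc
Ccl21b, bases 174 to 214: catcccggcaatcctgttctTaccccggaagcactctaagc
The values of single copies therefore depend on how reads were assigned. Ccl21a was at 9.88, 10.2 and 12.4 FPKM in DM, against 12.6 and 11.1 FPKM in Ctrl1 and Ctrl2. Ccl21b was at 1.39 and 1.66 FPKM in DM2 and DM3 and is listed at 0 in DM1, Ctrl1 and Ctrl2. It passed without DM1 (limma adjusted p = 0.0301) and not otherwise (limma adjusted p = 0.242 with all 5 libraries). The 5 genes together summed to 16.7, 21.1 and 25.1 FPKM in DM, against 23.0 and 20.1 FPKM in Ctrl, so the groups overlapped. Their receptor Ccr7 is listed at 0. Ackr4, which scavenges Ccl19, Ccl21 and Ccl25, was at 0.43, 0.16 and 0.27 FPKM in DM, against 0.50 and 0.73 FPKM in Ctrl (limma adjusted p = 0.236), and 8.9% of its exon length overlaps Acad11 on the opposite strand. Ackr4 met the detection threshold only through its Ctrl values.

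Membrane-bound fractalkine and its receptor had the same sign. Cx3cl1, which endothelial cells present to patrolling monocytes and macrophages, was at 1.78, 2.56 and 1.81 FPKM in DM, against 3.24 and 2.71 FPKM in Ctrl1 and Ctrl2. Its log2 fold change was -0.39 ± 0.16 (SE, limma adjusted p = 0.2). Its receptor Cx3cr1, a marker of resident macrophages and non-classical monocytes, was at 0.14, 0.41 and 0.16 FPKM in DM, against 0.81 and 0.93 FPKM in Ctrl. All DM libraries lay below both Ctrl libraries for the ligand and for the receptor, and neither gene passed. The log2 fold change of Cx3cr1 was -0.60 ± 0.15 (SE, limma adjusted p = 0.0764), or -1.61 with a pseudocount of 0.1 (limma adjusted p = 0.11). It was detected only through its Ctrl values.

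Of the 6 detected receptors 0 passed in limma, and 3 had an unadjusted p below 0.05 (Cx3cr1, Cxcr2 and Ackr3), as did 25% of all tested genes. Of these 3, Cx3cr1 and Cxcr2 had met the detection threshold only through the group where they were high. Cxcr2, the receptor of neutrophils for Cxcl1, Cxcl2 and Cxcl5, was at 0.72, 0.54 and 0.34 FPKM in DM, against 0.03, 0.16 and 0.13 FPKM in Ctrl1, Ctrl2 and Ctrl3. All DM libraries lay above all Ctrl libraries, and the detection threshold was met only through DM. The log2 fold change was 0.48 ± 0.16 (SE, limma adjusted p = 0.129), or 1.74 with a pseudocount of 0.1. Neutrophil markers were higher in the same libraries: of 13 listed, 7 were tested, and S100a8, S100a9, Retnlg, Mmp8 and Lcn2 rose (2.79% of all tested genes). Csf3r, which overlapped between the groups, and Stfa2l1 did not pass (limma adjusted p = 0.702 and 0.243). Retnlg, Mmp8 and Stfa2l1 had met the detection threshold only through their DM values. The 13 summed to 45.4, 70.5 and 58.8 FPKM in DM, against 4.19 and 8.84 FPKM in Ctrl, while Ly6g was at 0.10, 0.38 and 0.00 FPKM in DM and is listed at 0 in all 3 Ctrl libraries. Their part in the Cxcr2 values was not tested. Ccr1, found on neutrophils and monocytes, was at 0.84, 1.37 and 0.51 FPKM in DM, against 0.53, 0.52 and 0.54 FPKM in Ctrl, and the groups overlapped.

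The receptors of Cxcl12 lay lower in all DM libraries with FPKM as deposited, without passing. Ackr3, the atypical receptor that clears Cxcl12, had the highest mean level of the family over the complete libraries, close to that of Cxcl12. Ackr3 (ENSMUSG00000044337, chromosome 1, 90203980 to 90216751, GRCm38) was at 11.2, 19.1 and 12.2 FPKM in DM, against 22.4 and 22.5 FPKM in Ctrl1 and Ctrl2. DM2 lay nearest to the Ctrl libraries. The log2 fold change was -0.66 ± 0.23 (SE, limma adjusted p = 0.142), and without DM2 it was -0.89 (limma adjusted p = 0.0474). Cxcr4, the signalling receptor of Cxcl12, was at 1.44, 2.02 and 2.39 FPKM in DM, against 2.97 and 2.45 FPKM in Ctrl (limma adjusted p = 0.283). Of 11 endothelial cell markers tested 0 passed in limma and 4 had an unadjusted p below 0.05 (25% of all tested genes). The 11 markers summed to 182 to 231 FPKM in DM and to 175 and 172 FPKM in Ctrl.

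**Figure D4:**
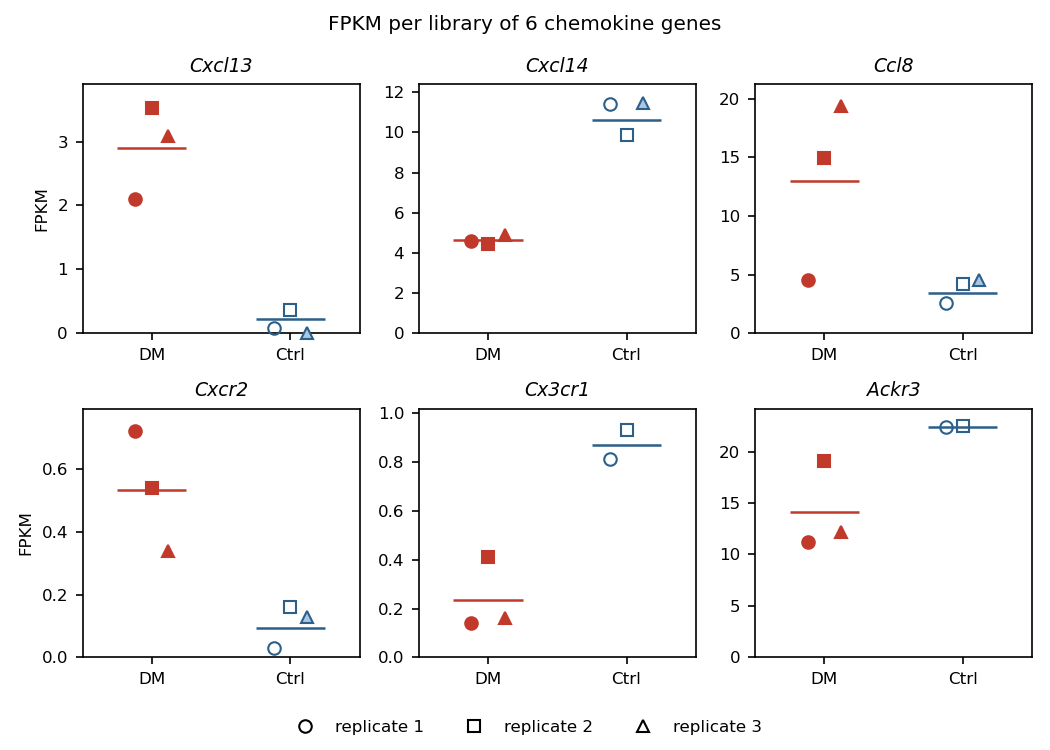
FPKM per library of 6 chemokine genes on linear axes from 0, with DM libraries in red, Ctrl libraries in blue (Ctrl3 pale where listed) and lines at the means of DM1 to DM3 and of Ctrl1 and Ctrl2. Cxcl13 and Cxcl14 passed the threshold, and the other 4 did not. The groups separate in every panel except Ccl8, where DM1 and Ctrl3 are both at 4.55 FPKM.

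Summed over all 37 ligands, the level was 62.2, 94.8 and 88.1 FPKM in DM1, DM2 and DM3, against 80.6 and 75.6 FPKM in Ctrl1 and Ctrl2, so the ligand total did not separate the groups. The 23 Ccl genes summed to 35.8, 61.7 and 55.1 FPKM in DM, against 41.1 and 39.1 FPKM in Ctrl. The 12 Cxcl genes summed to 24.5, 30.6 and 31.2 FPKM in DM, against 36.3 and 33.8 FPKM in Ctrl. The 19 signalling receptors together reached only 4.08 to 5.52 FPKM in DM and 5.48 and 5.23 FPKM in Ctrl. The 4 atypical receptors summed to 12.3, 19.3 and 13.1 FPKM in DM, against 23.6 and 23.7 FPKM in Ctrl, nearly all of it Ackr3.

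Relatives of the family that the symbol rule leaves out included 3 genes that rose. Over all 6 pathway lists 6 genes passed, and 0 to 2 did with 1 library left out (0 without Ctrl1 or Ctrl2, 1 without DM1 or DM2, 2 without DM3). Of 10 genes listed as relatives, 6 were tested, 3 rose and 0 fell, where 2.79% of all tested genes rose and 1.75% fell. The list was chosen with earlier results of these data known. The median of the 6 tested was 0.55 on the log2 scale, beside 0.06 over all tested genes. Rarres2, which encodes the chemoattractant chemerin, was at 10.9, 11.7 and 12.9 FPKM in DM, against 6.72, 5.03 and 4.83 FPKM in Ctrl1, Ctrl2 and Ctrl3 (log2 fold change 0.91, limma adjusted p = 0.0347). Ccrl2, which binds chemerin without signalling, was at 6.23, 5.54 and 4.46 FPKM in DM, against 2.59 and 2.82 FPKM in Ctrl1 and Ctrl2 (log2 fold change 0.78, limma adjusted p = 0.0487). The signalling chemerin receptor Cmklr1 overlapped between the groups, at 4.45 to 5.32 FPKM in DM and 5.03 and 3.21 FPKM in Ctrl. Gpr182, an endothelial atypical chemokine receptor, was at 3.72, 4.43 and 4.35 FPKM in DM, against 1.40 and 1.57 FPKM in Ctrl (log2 fold change 1.054, limma adjusted p = 0.0171). The platelet chemokine Pf4 was at 7.65, 7.69 and 10.6 FPKM in DM, against 13.7, 10.9 and 8.79 FPKM in Ctrl1, Ctrl2 and Ctrl3, and did not pass (limma adjusted p = 0.184).

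Of 25 tested genes of receptor signalling and 10 of desensitisation 0 passed in limma, with 2 in each list at an unadjusted p below 0.05. Over all tested genes 4.54% passed, 25% had an unadjusted p below 0.05 and the median log2 fold change was 0.06. Of 28 tested genes listed for the induction of chemokine transcription 0 passed in limma and 6 had an unadjusted p below 0.05. Their median log2 fold change was 0.20, and they include the inhibitor Nfkbia. The cytokines Tnf, Il1a, Il1b, Il6, Ifng and Il17a of that list did not meet the detection threshold and were not tested. Il17a is listed at 0 in the complete libraries. Of the 28, 20 had a positive sign and 8 a negative sign. The 4 with the smallest p were Ifngr2, which was lower in DM, and Irf1, Nfkbia and Cebpb, which were higher. Ifngr2 was at 14.8, 21.2 and 16.7 FPKM in DM, against 27.7, 30.4 and 31.5 FPKM in Ctrl (limma adjusted p = 0.0739). Nfkbia is the inhibitor and target of NF-kappa B. It was at 25.8, 22.6 and 31.8 FPKM in DM, against 11.1, 19.9 and 17.5 FPKM in Ctrl1, Ctrl2 and Ctrl3 (limma adjusted p = 0.131). Of 14 leukocyte adhesion genes 0 passed in limma and 4 had an unadjusted p below 0.05. Signs were positive in 7 of the 14 and negative in 7. Of the 4, Cd34 was lower in DM, and Esam, Pecam1 and Vcam1 were higher. Cd34 was at 8.59, 8.40 and 8.20 FPKM in DM, against 12.1, 11.7 and 10.7 FPKM in Ctrl. Vcam1 was at 3.05, 3.46 and 2.64 FPKM in DM, against 2.11, 1.43 and 2.35 FPKM in Ctrl. Among 16 genes of chemokine processing and display, the neutrophil collagenase Mmp8 rose, and the aminopeptidase Enpep and the heparan sulfate proteoglycan Gpc1 fell. Mmp8 had met the detection threshold only through its DM values. Enpep was at 0.76, 0.57 and 0.82 FPKM in DM, against 2.07, 2.81 and 1.99 FPKM in Ctrl1, Ctrl2 and Ctrl3 (log2 fold change -0.997, limma adjusted p = 0.0273), and Gpc1 was at 49.0, 48.2 and 39.5 FPKM in DM, against 76.9 and 72.1 FPKM in Ctrl1 and Ctrl2 (log2 fold change -0.70, limma adjusted p = 0.0487).

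Over all marker lists 11 genes passed, and 3 to 9 did with 1 library left out (3 without Ctrl1, 5 without Ctrl2, 6 without DM3). Over all tested genes 4.54% passed and 25% had an unadjusted p below 0.05. Of 7 monocyte, 3 dendritic cell, 1 T cell, 3 mast cell and 1 platelet marker tested, 0 passed in limma, with 3, 1, 1, 1 and 0 of them at an unadjusted p below 0.05, and none of 8 NK cell markers was high enough to be tested. Monocyte markers summed to 19.3 to 25.9 FPKM in DM and to 25.2 and 21.1 FPKM in Ctrl1 and Ctrl2, and T cell markers to 1.77 to 2.57 FPKM in DM and to 2.90 and 3.56 FPKM in Ctrl. Most of the T cell sum was Thy1, at 1.10, 1.68 and 1.23 FPKM in DM, against 2.47 and 2.68 FPKM in Ctrl. The other T cell markers were too low to be tested. The NK cell markers Prf1 and Klra4, the mast cell marker Ms4a2 and the platelet marker Gp6 are listed at 0 in the complete libraries. Of 4 venous and 5 lymphatic endothelial markers tested 0 passed in limma, with 3 and 1 at an unadjusted p below 0.05. The venous markers summed to 30.1 to 36.0 FPKM in DM and to 23.1 and 21.9 FPKM in Ctrl, and the lymphatic markers to 16.1 to 25.6 FPKM in DM and to 20.2 and 17.6 FPKM in Ctrl. Of 9 pericyte and smooth muscle markers Acta2 fell, of 8 cardiomyocyte markers Actc1 fell, and of 6 atrial markers 0 passed in limma, with 1 at an unadjusted p below 0.05. The part of these cell types in the chemokine values was not tested.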

How the data were processed

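Per the file headers, the deposited values are FPKM per gene, made by the authors and rounded to 2 decimals. Per the submitters' processing notes, cutadapt 1.9, HISAT2 2.0.4 and StringTie 1.3.4d were used with GRCm38. Neither source gives the strand setting or the annotation release. Identifiers were matched to GENCODE release M21, and 55141 of 55401 had a symbol. Genes that reached 0.5 FPKM in 2 or more of the 5 complete libraries were tested on log2(FPKM + 1) with limma 3.58.1 in R 4.3.3 (eBayes with trend), two-sided, adjusted by Benjamini-Hochberg over all 13702 genes, without covariates. The test was run on simulated data first. Fold changes on this scale understate changes of low genes. Ctrl3, with 13.9% of the genes, was set beside the fit. Its inclusion, pseudocounts, filters, scalings, variance models, a replicate block, a threshold of 0.1 and each library left out were alternatives. Exon overlaps and shared 50-base stretches were read from GENCODE, and promoters from RefSeq. Among detected chemokine genes, values in every library are given for 3 kinds. These are the genes past the threshold, the 10 most abundant and those that separate the groups by at least 1 on the log2 scale. Of each pathway or marker list, genes past the threshold, up to 4 with the smallest p and markers at 0 may be named. Values of further genes are given by role, and those were chosen after being seen. The members, lists and tests were chosen with earlier results of these data known. Software also included pandas 2.3.3, numpy 2.4.6 and matplotlib 3.10.9.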

Additional observations from a re-analysis of the deposited data

How the results depend on the processing

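The main test called 622 genes and 3 chemokine genes. Over all genes, 81 were called without a filter on low values, 1140 with array weights, 1140 with Ctrl3 added, 1614 at a threshold of 0.1 and 22 to 292 with 1 library left out (22 without Ctrl1). Chemokine calls numbered 0 without a filter (8 of 47 tested at an unadjusted p below 0.05), 1 with a filter at 5 FPKM, where 6 were tested, and 0 to 4 with 1 library left out. Each of these calls used limma. With 1 Ctrl library left, that library is assumed to vary like the DM group. Same-numbered libraries correlated at 0.172, -0.0505 and 0.148 over 5301 genes, so not every pair exceeded 0.1 and pairing was not assumed. DM1 and DM3 correlated best with their own number and DM2 with Ctrl1, and the atrial marker Myl7 had the same order over the numbers in both groups. A replicate block gave 37 calls and 0 chemokine calls (8 at an unadjusted p below 0.05), with adjusted p-values of 0.0621 for Cxcl13, 0.0738 for Cxcl14 and 0.11 for Ccl11. Pathway list calls (6) numbered 0 under the block and 0 without a filter, and marker list calls (11) 5 and 4. A detection threshold of 0.1 FPKM gave 40 detected chemokine genes in place of 25. Groups did not overlap in 13 to 18 of the detected genes with 1 library left out, and in 11 with Ctrl3, 15 after centring and 12 as TPM, alternatives chosen after seeing the data. The sign reversed for Ccl9 without DM1 (0.11) and Ctrl1 (0.08), Ccl6 without DM2 (-0.08) and Ctrl2 (-0.17), and Ccl12 without Ctrl2 (0.24). With 1 library left out these genes ranged over -0.31 to 0.11 (Ccl9), -0.17 to 0.54 (Ccl6) and -0.80 to 0.24 (Ccl12). Of the log2 fold changes of chemokine genes under alternatives, 436 kept direction and side of the threshold, 16 lost and 5 gained the call, and 5 reversed. The cause was not tested. Depth is unknown, which limits genes below 1 FPKM.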
